A study of Homo sapiens with 6 samples.

Results

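The mitochondrial genome of human cells encodes 13 proteins of the respiratory chain, and this report describes their mRNAs together with 26 nuclear genes whose products copy, transcribe, cut, tail, stabilise or degrade mitochondrial nucleic acids. The 39 genes were taken by name from a table of 21462 genes. All 39 were in the table and all 39 passed the filter on low counts, which kept 12351 genes. The cells were HO-1-N-1, an oral squamous cell carcinoma line. They were transfected with an siRNA against Sam68 (libraries 1, 2 and 3) or with a control siRNA (libraries 1, 3 and 5), and poly(A) RNA was sequenced in each of the 6 libraries. Both groups were grown in the same medium and received the same transfection reagent, and no time after transfection is given in the labels. Sam68 is the product of KHDRBS1 and binds RNA in the nucleus. The comparison asks which transcripts differ when it is depleted.

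Mitochondrial DNA is transcribed from both strands into long polycistronic RNAs by a single-subunit polymerase, POLRMT, together with TFAM and TFB2M. The tRNAs that lie between the coding genes are cut out, which frees most of the mRNAs, and a mitochondrial poly(A) polymerase then adds short tails. LRPPRC and SLIRP bind and stabilise the mRNAs, and PNPT1 with the helicase SUPV3L1 degrades RNA. The mitochondrial genes themselves have no introns.

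The 3′ ends of the mitochondrial mRNAs are shown because a poly(A) tail is both what the library preparation selects and, for some of these mRNAs, part of the stop codon. In 6 of the 13 annotated mRNAs the sequence stopped after the first base or bases of a stop codon, 5 of them after T and 1 after TA, and the tail is known to supply the rest. The other 7 ended in a complete stop codon. MT-ND6 was the only one of the 13 transcribed from the minus strand, and its mRNA is known to carry little or no tail. The lines below give the last bases of 9 of the 13 coding sequences, 5′ to 3′ on the coding strand, from the GENCODE transcripts (GRCh38, the build the submitters' processing notes name as hg38), with capitals marking the stop codon or its encoded part.
MT-ND1: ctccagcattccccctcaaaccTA
MT-ND2: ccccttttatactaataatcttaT
MT-ND3: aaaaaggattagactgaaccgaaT
MT-ND4: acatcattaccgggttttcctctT
MT-CYB: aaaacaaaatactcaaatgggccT
MT-CO3: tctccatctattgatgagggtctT
MT-CO1: gaacccgtatacataaaatctAGA
MT-ATP6: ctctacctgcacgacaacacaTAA
MT-ND6: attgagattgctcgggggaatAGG
The first 6 lie at MT:4239-4262, MT:5488-5511, MT:10381-10404, MT:12114-12137, MT:15864-15887 and MT:9967-9990. The last 3 lie at MT:7422-7445, MT:9184-9207 and MT:14149-14172. Some coding sequences also overlap, so that a read can belong to either gene. MT-ATP8 and MT-ATP6 shared 46 bases (MT:8527-8572), MT-ND4L and MT-ND4 shared 7, and MT-ATP6 and MT-CO3 shared 1, and the counts of these 5 genes are uncertain to that extent. The stretch that belongs to both MT-ATP8 and MT-ATP6 is printed in capitals throughout.
MT-ATP8 and MT-ATP6 overlap: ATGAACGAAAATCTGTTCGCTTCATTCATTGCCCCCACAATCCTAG

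The libraries held between 16099488 and 17336651 counts in genes, and 14412 to 14590 genes had a count in a library. KHDRBS1 had 26.4, 31.0 and 28.8 CPM in the Sam68 siRNA libraries, against 227, 205 and 184 CPM in the controls (log2 fold change −2.84, SE 0.09, edgeR adjusted p = 1.56e-08). All 8 markers of squamous epithelium had at least 10 counts in every library, with a summed level of 6396 to 6573 CPM in the Sam68 siRNA libraries and 5818 to 6140 CPM in the controls. The summed markers of fibroblasts, leukocytes, endothelium and skeletal muscle each stayed at or under 8.81 CPM in every library, with PDGFRA and MYH2 at 0 in all 6. Control library 5 stood apart from control libraries 1 and 3 in its mitochondrial mRNAs, so the tests of edgeR and of the mitochondrial share and ratio are given with and without it.

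The 13 mitochondrial mRNAs differed between libraries by far more than the nuclear factors did, and the highest library was a control. They took 0.300%, 0.612% and 0.671% of all counts in Sam68 siRNA libraries 1, 2 and 3, against 0.158%, 0.216% and 2.27% in control libraries 1, 3 and 5. Sam68 siRNA libraries 2 and 3 differed by more than counting error, with 95% Wilson intervals of 0.608% to 0.616% and 0.667% to 0.675%. The 3 Sam68 siRNA libraries lay above controls 1 and 3 and below control 5, so the groups overlapped. The 26 nuclear factors took 0.121%, 0.124% and 0.122% of all counts in the Sam68 siRNA libraries, against 0.119%, 0.116% and 0.115% in the controls. Their share was nearly flat across the same libraries in which the mitochondrial share ranged from 0.158% to 2.27%. In RNA from pooled cells, a higher level per cell and a larger fraction of cells with a high level cannot be told apart.

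On the length-corrected scale of the deposited TPM, the 13 mitochondrial mRNAs summed to 10368, 20537 and 22837 TPM in the Sam68 siRNA libraries, against 5580, 7641 and 70923 TPM in controls 1, 3 and 5. The 26 nuclear factors summed to 1209, 1217 and 1202 TPM in the Sam68 siRNA libraries, against 1215, 1188 and 1131 TPM in the controls. The ratio of the mitochondrial sum to the nuclear sum was therefore 8.57, 16.9 and 19.0 in the Sam68 siRNA libraries, against 4.59, 6.43 and 62.7 in the controls. The lowest nuclear sum belonged to control 5, where the mitochondrial mRNAs alone held 7.09% of the TPM total. With TPM rescaled to leave those genes out, the nuclear sum was 1222.15, 1243 and 1231 TPM in the Sam68 siRNA libraries. In the controls it was 1221.68, 1197 and 1217 TPM. SSBP1, the single-stranded DNA-binding protein of mitochondrial replication, was the most abundant nuclear factor in all 6 libraries, with 249.3, 256 and 244 TPM in the Sam68 siRNA libraries, against 248.7, 248 and 226 TPM in the controls. The number of mitochondrial mRNAs above SSBP1 in TPM was 11, 13 and 13 of 13 in the Sam68 siRNA libraries, against 7, 10 and 13 in controls 1, 3 and 5. At the low end stood POLG2, the accessory subunit of the mitochondrial DNA polymerase, with 8.04, 7.46 and 7.81 TPM in the Sam68 siRNA libraries, against 7.01, 5.73 and 9.14 TPM in the controls.

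**Figure D1:**
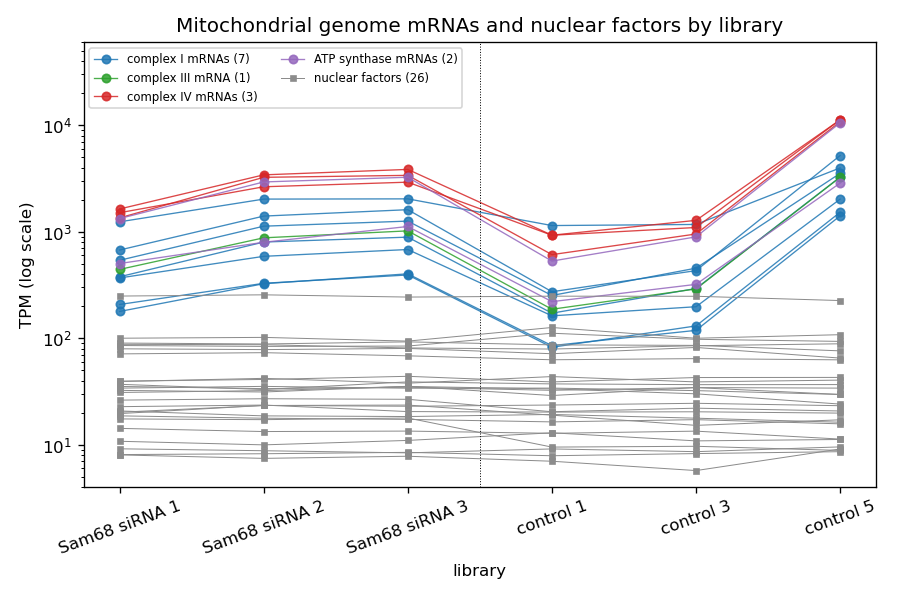
Level of each of the 39 genes in TPM on a log axis, with 1 line per gene and the 6 libraries along the x axis; colours mark the respiratory complex of the mitochondrial mRNAs and grey squares the nuclear factors. The mitochondrial mRNAs move up and down together and peak in control 5, whereas the lines of the nuclear factors stay nearly level.

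No mitochondrial mRNA passed the test between Sam68 siRNA and control siRNA. The sign of the difference in the mitochondrial share depended on which control was left out. The log2 share of counts in the 13 mRNAs differed by 0.22 (mean of the Sam68 siRNA libraries minus mean of the controls; exact two-sided permutation test, p = 0.9, where 3 against 3 libraries cannot give less than 0.1). Without control 5 the difference was 1.43 (exact two-sided permutation test, p = 0.2, where 3 against 2 libraries cannot give less than 0.1). Without control 1 it was −0.49, and without control 3 it was −0.26. The log2 ratio of the mitochondrial to the nuclear sum behaved likewise, with a difference of 0.19 over all 6 libraries (exact two-sided permutation test, p = 0.9) and of 1.37 without control 5. For the nuclear sum alone the difference was 0.04 (exact two-sided permutation test, p = 0.3). With TPM rescaled to leave out the mitochondrial genes it was 0.02 (exact two-sided permutation test, p = 0.1, the least possible here).

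An mRNA of cytochrome c oxidase, which reduces oxygen at the end of the chain, was the most abundant of the 13 in TPM in every library except control 1. MT-CO1, its catalytic core (MT:5904-7445), had 783, 1418 and 1527 CPM in the Sam68 siRNA libraries, against 482, 563 and 6229 CPM in controls 1, 3 and 5. The Sam68 siRNA libraries were thus above both lower controls and far below the third. Its mean was 1243 ± 402 CPM in Sam68 siRNA cells and 2425 ± 3295 CPM in control cells (SD, n = 3 each), so that the control SD exceeded the control mean. Controls 1 and 3 alone averaged 522 CPM. MT-CO2, which takes electrons from cytochrome c, had 311, 772 and 785 CPM in the Sam68 siRNA libraries, against 141, 217 and 2649 CPM in the controls. MT-CO3 had 432, 933 and 1023 CPM in the Sam68 siRNA libraries, against 245, 334 and 3157 CPM in the controls. In TPM, MT-CO3 led the 13 mRNAs in 4 libraries, with 1638, 3425 and 3853 TPM in the Sam68 siRNA libraries and 1281 TPM in control 3. In control 1 the leading mRNA was MT-ND3, with 1145 TPM, and in control 5 it was MT-CO1, with 11275 TPM.

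The 7 complex I mRNAs, whose products form the proton-pumping membrane arm of NADH dehydrogenase, showed the same arrangement of libraries at lower levels. MT-ND4 (MT:10760-12137) had 312, 672 and 753 CPM in the Sam68 siRNA libraries, against 127, 198 and 2568 CPM in the controls. MT-ND1 (MT:3307-4262) had 122, 266 and 288 CPM in the Sam68 siRNA libraries, against 55.4, 93.4 and 1119 CPM in the controls. MT-ND6 (MT:14149-14673), the minus-strand gene, had 31.5, 59.4 and 71.7 CPM in the Sam68 siRNA libraries, against 15.1, 20.7 and 266 CPM in the controls. Its library order was that of the plus-strand genes. No strand setting is stated, so its counts may include reads of plus-strand RNA over the same bases, which was not tested. MT-ND3 (MT:10059-10404) had the smallest spread, with 144, 244 and 239 CPM in the Sam68 siRNA libraries, against 133, 135 and 493 CPM in the controls. The remaining genes of this complex, MT-ND2, MT-ND4L and MT-ND5, ranged from 36.8 to 445 CPM in the Sam68 siRNA libraries and from 16.3 to 1321 CPM in the controls.

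MT-CYB, the cytochrome b of complex III (MT:14747-15887), had 170, 348 and 394 CPM in the Sam68 siRNA libraries, against 72.0, 110 and 1329 CPM in controls 1, 3 and 5. Of the ATP synthase subunits, MT-ATP6, which forms the proton channel (MT:8527-9207), had 305, 695 and 750 CPM in the Sam68 siRNA libraries, against 122, 203 and 2571 CPM in the controls. MT-ATP8 had 35.1, 57.4 and 78.6 CPM in the Sam68 siRNA libraries, against 15.4, 22.1 and 213 CPM in the controls. In all 13 genes control 1 was the lowest library and control 5 the highest. In 12 of the 13 the full order, low to high, was control 1, control 3, Sam68 siRNA 1, Sam68 siRNA 2, Sam68 siRNA 3 and control 5, and MT-ND3 differed only in having Sam68 siRNA 3 just under Sam68 siRNA 2.

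Control 5 was at least 2-fold above both other controls in all 13 mitochondrial mRNAs, against 0.947% of all genes tested, and in 0 of the 26 nuclear factors. Relative to control 1 its CPM was 3.70 times as high for MT-ND3 and 12.9 to 21.1 times as high for the other 12, with a median of 17.6 over the 13. Relative to control 3 it was 3.66 times as high for MT-ND3 and 8.36 to 12.97 times as high for the others. The nuclear factors ran from 0.766 to 1.39 times their level in control 1 and from 0.856 to 1.72 times that in control 3. None of them was 2-fold below both other controls, as 0.494% of all genes tested were. Since these are single libraries, the difference has no test, and its cause was not tested. The level of TFAM, which packages mitochondrial DNA and helps to start transcription, was 44.5 CPM in control 5, against 58.1 and 51.6 CPM in controls 1 and 3. POLRMT had 58.1 CPM in control 5, against 58.9 and 51.8 CPM in controls 1 and 3, and LRPPRC had 194 CPM in control 5, against 207 and 202 CPM in controls 1 and 3. Of the 26 nuclear factors, 11 were higher in control 5 than in both other controls and 9 were lower than in both. TFB2M, an initiation factor, was among the 11, with 27.5 CPM in control 5, against 23.4 and 25.4 CPM in controls 1 and 3. POLG2 was another, with 12.2 CPM in control 5, against 8.81 and 7.11 CPM in controls 1 and 3.

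The make-up of the mitochondrial counts was much steadier than their total, apart from MT-ND3. The 3 cytochrome c oxidase mRNAs held 50.9%, 50.8% and 50.04% of the counts of the 13 mRNAs in the Sam68 siRNA libraries, against 55.5%, 51.7% and 52.1% in controls 1, 3 and 5. The 7 complex I mRNAs held 32.1%, 31.2% and 31.6% in the Sam68 siRNA libraries, against 31.1%, 32.7% and 30.2% in the controls. The ATP synthase pair held 11.3%, 12.3% and 12.4% in the Sam68 siRNA libraries, against 8.78%, 10.5% and 12.04% in the controls. Each complex thus kept roughly its place even in control 5, and the oxidase share was highest and the ATP synthase share lowest in control 1.

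MT-ND3 held 4.81%, 3.97% and 3.58% of the counts of the 13 mRNAs in the Sam68 siRNA libraries, against 8.53%, 6.27% and 2.13% in controls 1, 3 and 5. Its share ran in exactly the reverse order of the mitochondrial share of all counts, from control 1, which had the fewest mitochondrial counts, to control 5, which had the most. The highest share was 3.998 times the lowest, against 1.15 to 1.45 times for each of the other 12 mRNAs. The 95% Wilson intervals, 8.20% to 8.88% in control 1 and 2.09% to 2.18% in control 5, show that this gap is not counting error. Set against its genomic neighbour MT-CO3, MT-ND3 had 0.334, 0.261 and 0.233 counts per MT-CO3 count in the Sam68 siRNA libraries, against 0.544, 0.404 and 0.156 in the controls. The shares of MT-ND3 are a description of 6 libraries, and what sets them was not tested. MT-CO1 was the one gene of the 13 whose shares did not overlap between the groups, with 26.1%, 23.1% and 22.9% in the Sam68 siRNA libraries, against 30.8%, 26.1% and 26.9% in the controls. Sam68 siRNA library 1 and control library 3 were nearly equal in this share, and their 95% Wilson intervals (25.7% to 26.5% and 25.7% to 26.6%) overlapped.

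**Figure D2:**
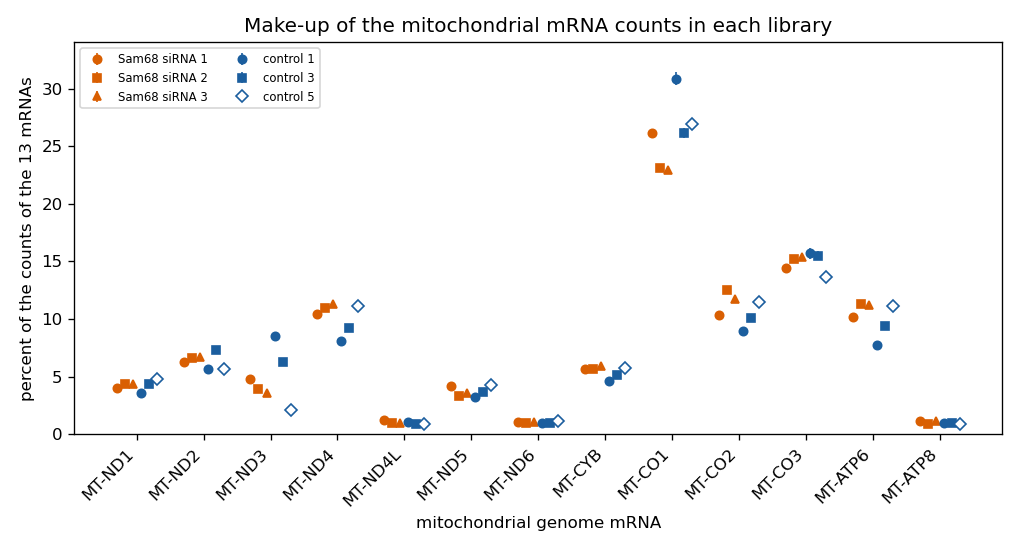
Percent of the counts of the 13 mitochondrial mRNAs that belonged to each gene, with 1 point per library and 95% Wilson intervals as bars, most of them smaller than the points; orange is Sam68 siRNA and blue control siRNA, with control 5 open. MT-ND3 runs from 2.13% in control 5 to 8.53% in control 1, while the other genes keep within 1.45-fold.

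In the fit over all genes, edgeR's quasi-likelihood test called 0 of the 13 mitochondrial mRNAs at an adjusted p below 0.05, against 19.1% of the 12351 genes tested. None had an unadjusted p below 0.05 either, and limma-voom also called 0. DESeq2 gave an adjusted p for only 3 of the 13 (MT-ND2, MT-ND3 and MT-ATP8) and called 0 of these 3. The log2 fold changes, Sam68 siRNA over control, ran from −0.96 for MT-CO1 (SE 1.24, edgeR adjusted p = 0.654) to −0.28 for MT-ND3 (SE 0.68, edgeR adjusted p = 0.823), with a median of −0.73. These negative values come from the fitted group means, in which control 5 outweighs the other controls. The plain difference of mean log2 CPM was above 0 in 12 of the 13 genes, with a median of 0.30, so no direction is given for the mitochondrial mRNAs over all 6 libraries. The authors' deposited table gives log2 fold changes of −0.961 to −0.277 for them, with adjusted p-values of 0.282 to 0.663.

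With control 5 left out, all 3 Sam68 siRNA libraries lay above both remaining controls in 13 of 13 mitochondrial mRNAs, as did 24.9% of all genes tested. The fitted log2 fold changes were then 0.64 for MT-ND3 (SE 0.30) to 1.84 for MT-ATP6 (SE 0.60), with a median of 1.60. edgeR still called 0 of the 13, against 21.4% of the genes tested in that fit (10.2% higher in the Sam68 siRNA libraries), with adjusted p-values from 0.0741 for MT-ND4L to 0.263 for MT-ND3. At an unadjusted p below 0.05 there were 8 of the 13, against 34.1% of the 12482 genes tested in that fit. The 13 genes move together in each library and are not 13 independent observations.

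**Figure D3:**
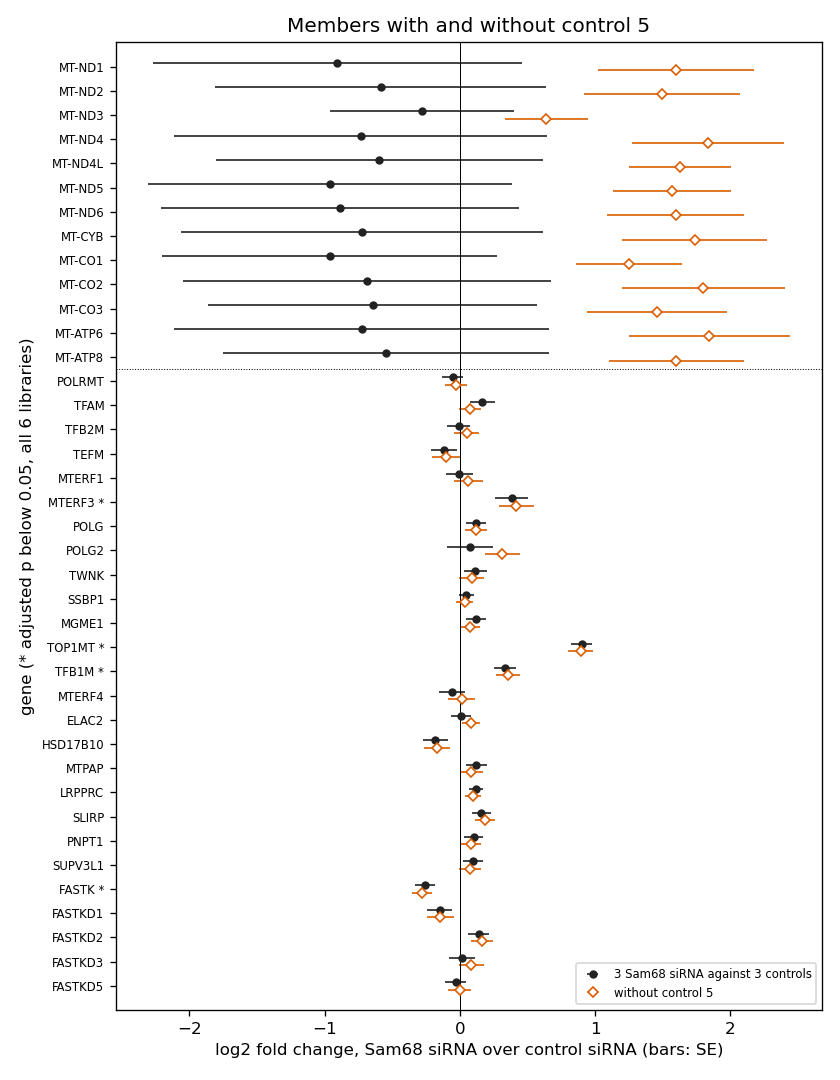
edgeR log2 fold change of each of the 39 genes, Sam68 siRNA over control siRNA, with standard errors as bars; filled points use all 6 libraries and open points leave out control 5, and asterisks mark genes with an adjusted p below 0.05 over all 6. The mitochondrial mRNAs at the top span −0.96 to −0.28 with control 5 and 0.64 to 1.84 without it. Most nuclear factors below them keep close to their values, whereas POLG2 moves from 0.08 to 0.31.

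Of the 26 nuclear factors, TOP1MT, TFB1M and MTERF3 rose and FASTK fell in Sam68 siRNA cells, and 22 did not pass the test. The called share was 15.4%, which is no higher than the 19.1% of all genes tested (9.33% rose and 9.76% fell). For CPM that did not overlap between the groups the count was 9 of the 26, or 34.6%, against 38.0% of all genes tested. The median log2 fold change over the 26 was 0.09. The same 4 genes were called, in the same directions, without control 5. Each of the called genes belongs to another step of mitochondrial gene expression, and no step had more than 1 of its members called.

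Of the genes for keeping and copying mitochondrial DNA, TOP1MT showed the clearest difference of the 39 genes. TOP1MT, the mitochondrial type I topoisomerase that relaxes supercoils in mitochondrial DNA (on chromosome 8, 143304384 to 143359979, minus strand), had 25.2, 25.6 and 25.9 CPM in the Sam68 siRNA libraries, against 13.7, 13.8 and 13.6 CPM in the controls. The libraries of each group were nearly identical and the groups were far apart, at 25.6 ± 0.352 CPM in Sam68 siRNA cells and 13.7 ± 0.103 CPM in control cells (SD, n = 3 each). The log2 fold change was 0.90 (SE 0.08, edgeR adjusted p = 4.97e-05). TOP1MT passed in all 19 alternative fits, the 6 that leave out 1 library among them. Control 5, with its high mitochondrial mRNA level, had the same TOP1MT level as controls 1 and 3.

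The other genes of replication differed by less than the test could resolve. POLG, the catalytic subunit of the mitochondrial DNA polymerase, had a log2 fold change of 0.12 (edgeR adjusted p = 0.294), and that of POLG2 was 0.08 (edgeR adjusted p = 0.793). The POLG2 value depended on control 5, and without that library it was 0.31 (SE 0.13, edgeR adjusted p = 0.0987). TWNK, the replicative helicase, had 27.7, 25.7 and 24.7 CPM in the Sam68 siRNA libraries, against 25.7, 23.4 and 23.1 CPM in the controls. SSBP1 had 124, 132 and 122 CPM in the Sam68 siRNA libraries, against 124, 122 and 120 CPM in the controls, with a log2 fold change of 0.05 (SE 0.05). MGME1, an exonuclease that trims mitochondrial DNA ends, had a log2 fold change of 0.12 (edgeR adjusted p = 0.289). Exons of POLG, TWNK and MGME1 overlap those of FANCI, MRPL43 and SNX5, each with more counts than the gene it overlaps, as do those of FASTKD3 and MTRR. These overlaps are with genes on the other strand, and no strand setting is stated. FASTKD5 overlaps UBOX5 on the same strand, where a strand setting would not separate the reads. The counts of all these genes are uncertain.

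Among the genes of transcription, MTERF3 was called and the polymerase and its initiation factors were not. MTERF3, a member of the MTERF family known in mice to restrain the start of mitochondrial transcription, had 12.3, 14.6 and 14.4 CPM in the Sam68 siRNA libraries, against 11.5, 9.12 and 11.1 CPM in the controls. The gap between the groups was narrow, with the lowest Sam68 siRNA library just above the highest control. The log2 fold change was 0.38 (SE 0.12, edgeR adjusted p = 0.0461), and the adjusted p reached 0.177 when 1 library was left out, with the call lost without Sam68 siRNA library 2, Sam68 siRNA library 3 or control 3. POLRMT had 52.9, 58.5 and 51.3 CPM in the Sam68 siRNA libraries, against 58.9, 51.8 and 58.1 CPM in the controls, which overlapped fully (log2 fold change −0.05, SE 0.08). TFAM had 53.7, 57.8 and 61.6 CPM in the Sam68 siRNA libraries, against 58.1, 51.6 and 44.5 CPM in the controls (log2 fold change 0.17, edgeR adjusted p = 0.253). TFB2M, the factor that melts the promoter, had a log2 fold change of −0.01. TEFM, the elongation factor, had one of −0.12 and MTERF1, which binds downstream of the ribosomal RNA genes, one of −0.01.

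TFB1M, the methyltransferase that modifies the small ribosomal RNA of the mitochondrion, had 24.7, 26.3 and 25.4 CPM in the Sam68 siRNA libraries, against 19.3, 20.6 and 20.8 CPM in the controls. All 3 Sam68 siRNA libraries lay above all 3 controls, with means of 25.5 ± 0.802 and 20.2 ± 0.831 CPM (Sam68 siRNA and control, SD, n = 3 each). The log2 fold change was 0.33 (SE 0.08, edgeR adjusted p = 0.0131), and the call was lost without Sam68 siRNA library 2 or 3, where the adjusted p reached 0.0675. TFB1M overlaps exons of TIAM2, which had 10.0% as many counts. MTERF4, which guides the methyltransferase NSUN4 to the mitochondrial ribosome, had 15.4, 15.3 and 14.2 CPM in the Sam68 siRNA libraries, against 15.4, 14.3 and 17.1 CPM in the controls. TFB2M, the paralog of TFB1M that starts transcription, stayed within overlapping ranges, at 23.7 to 26.6 CPM in the Sam68 siRNA libraries and 23.4 to 27.5 CPM in the controls.

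None of the 3 genes for cutting and tailing the transcripts and none of the 4 for their stability and decay was called. ELAC2, which cuts the 3′ ends of tRNAs, had a log2 fold change of 0.01, and HSD17B10, a subunit of the mitochondrial RNase P that cuts the 5′ ends, one of −0.18 (edgeR adjusted p = 0.205). MTPAP, the poly(A) polymerase that completes stop codons such as those of MT-ND3 and MT-CYB shown above, had 28.7, 27.7 and 27.2 CPM in the Sam68 siRNA libraries, against 25.8, 26.7 and 24.2 CPM in the controls. Its groups did not overlap, but the difference missed the threshold (log2 fold change 0.12, SE 0.08, edgeR adjusted p = 0.298). LRPPRC had 215, 218 and 222 CPM in the Sam68 siRNA libraries, against 207, 202 and 194 CPM in the controls. SLIRP, its partner, had 51.9, 55.0 and 50.1 CPM in the Sam68 siRNA libraries, against 45.8, 46.3 and 48.6 CPM in the controls. Both had groups that did not overlap and an adjusted p above the threshold (edgeR adjusted p = 0.143 for LRPPRC and 0.132 for SLIRP). The values of SLIRP are uncertain, because its exons overlap those of genes with more counts. PNPT1, the exoribonuclease of the degrading complex, had a log2 fold change of 0.10, as did the helicase SUPV3L1.

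In the FASTK family, RNA-binding proteins of the mitochondrion, FASTK itself fell and the other 4 were not called. FASTK, known to be needed for the mRNA of MT-ND6, had 54.1, 54.8 and 53.8 CPM in the Sam68 siRNA libraries, against 70.6, 61.1 and 63.0 CPM in the controls. Control 1 was well above the rest, and all 3 Sam68 siRNA libraries lay within 1 CPM of each other below the lowest control. The log2 fold change was −0.26 (SE 0.07, edgeR adjusted p = 0.0275), and the adjusted p reached 0.0955 when 1 library was left out, with the call lost without control 1 or without any 1 of the Sam68 siRNA libraries. FASTKD1, known to act on the mRNA of MT-ND3, had 18.6, 17.8 and 19.1 CPM in the Sam68 siRNA libraries, against 22.4, 18.5 and 20.6 CPM in the controls (log2 fold change −0.15, SE 0.09). FASTKD2, FASTKD3 and FASTKD5 had log2 fold changes of 0.14, 0.01 and −0.03. MT-ND6 held 1.05%, 0.967% and 1.08% of the counts of the 13 mitochondrial mRNAs in the Sam68 siRNA libraries, against 0.966%, 0.963% and 1.15% in the controls, ranges that overlapped.

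**Figure D4:**
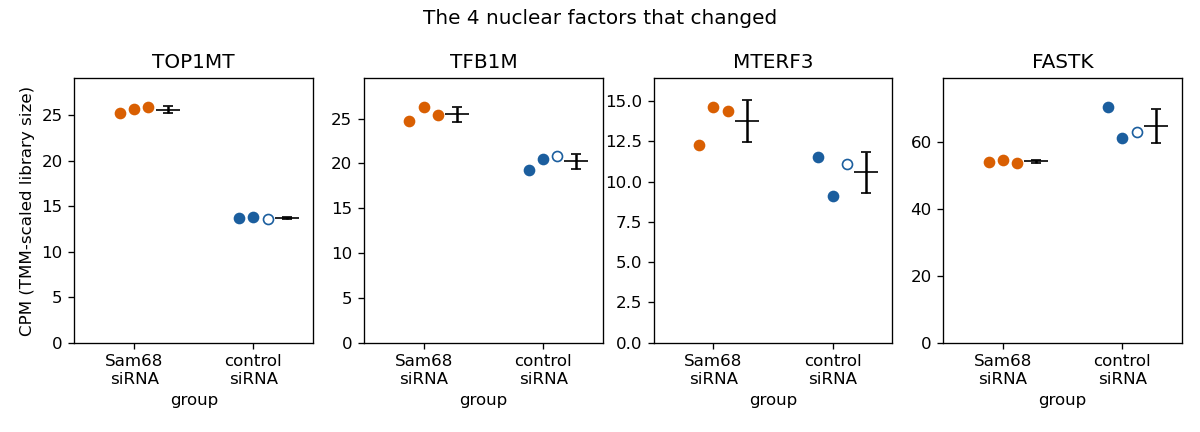
CPM of the 4 nuclear factors that passed the test, with 1 point per library (orange Sam68 siRNA, blue control siRNA, control 5 open) and the mean with its SD beside the points, n = 3 each. TOP1MT is 25.2 to 25.9 CPM in the Sam68 siRNA libraries and 13.6 to 13.8 CPM in the controls, and the other 3 genes differ by less, with FASTK lower in the Sam68 siRNA libraries.

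The 22 nuclear factors that were not called had log2 fold changes between −0.18 and 0.17, 14 of them above 0 and 8 below. Across all 6 libraries the highest CPM of a nuclear factor was 1.10 to 1.91 times its lowest, with a median of 1.20, against a median of 1.30 over all genes tested. For the mitochondrial mRNAs the same ratio was 3.70 to 21.1. It was at least 2 in all 13 mitochondrial mRNAs and in 0 of the 26 nuclear factors, against 9.1% of all genes tested. The authors' deposited table lists 3 of the 26 nuclear factors with an adjusted p below 0.05, at 1.78e-11 for TOP1MT, 0.00277 for TFB1M and 0.0089 for FASTK, and gives 0.0571 for MTERF3. The share of all genes below 0.05 in the authors' test was not counted here, so this count has no background beside it.

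Promoters of 3 nuclear factors are shown because the genes of this machinery are known as targets of NRF1 and of the ETS factor GABPA, and TFB1M was called while TFAM and POLRMT were not. RefSeq start sites on GRCh38.p14 were matched for 22 of the 26 genes, and windows of 300 bases, 250 before the start and 50 after it, were searched on both strands. The NRF1 motif was read as GCGC, any base and then TGCGC. It was in 4 of the 22 genes (18.2%, namely POLRMT, TFAM, POLG2 and TFB1M), against 6.98% of 27305 genes. The ETS letters CCGGAAG were in 9 of the 22 (40.9%), against 12.2%. Both backgrounds cover all genes with a RefSeq window, not only the genes tested here, and were not matched for expression or base content. The last 140 bases before the start are printed 5′ to 3′ on the coding strand, with matches to either motif in capitals.
TFB1M: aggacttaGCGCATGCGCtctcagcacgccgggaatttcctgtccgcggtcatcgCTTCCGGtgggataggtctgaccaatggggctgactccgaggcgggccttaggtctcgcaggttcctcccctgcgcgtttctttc
POLRMT: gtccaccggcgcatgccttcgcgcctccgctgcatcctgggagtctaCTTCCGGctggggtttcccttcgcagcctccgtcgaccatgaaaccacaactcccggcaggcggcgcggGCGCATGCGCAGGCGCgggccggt
TFAM: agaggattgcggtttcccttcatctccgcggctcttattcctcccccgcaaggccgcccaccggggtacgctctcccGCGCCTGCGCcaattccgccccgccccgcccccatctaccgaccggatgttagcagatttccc
They lie at chr6:155314485-155314624 (minus strand), chr19:633538-633677 (minus strand) and chr10:58385270-58385409 (plus strand). The NRF1 motif began 132 bases before the start in TFB1M and 63 bases before it in TFAM. In POLRMT 2 overlapping matches lay between 24 and 9 bases before it. TFB1M and POLRMT each also held the ETS letters, whereas the printed stretch of TFAM did not. The 3 printed genes thus shared the NRF1 motif, whether called or not. They do not stand for all called genes. FASTK, also called, had neither motif in its window, and TOP1MT and MTERF3 had no matched start site and were not searched. A match of letters is a description, not evidence of binding.

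Genes of neighbouring steps of mitochondrial gene expression that are not among the 39 were counted from lists. Of 71 tested, 6 rose, 2 fell and 63 were not called, which is 11.3% called against 19.1% of all genes tested. None of the 8 tested nuclear regulators, NRF1 and GABPA among them, and none of 13 further RNA-processing genes was called. Of 13 further genes of DNA maintenance 2 rose. TK2, the mitochondrial thymidine kinase, had 31.4, 32.0 and 35.2 CPM in the Sam68 siRNA libraries, against 25.7, 22.6 and 22.5 CPM in the controls (log2 fold change 0.48, SE 0.09, edgeR adjusted p = 0.00328), and DNA2, a nuclease and helicase, had a log2 fold change of 0.45 (edgeR adjusted p = 0.0263). Of 23 RNA-modifying genes 2 rose, the ribosomal RNA methyltransferase MRM1 with a log2 fold change of 0.43 and the pseudouridine synthase PUS1 with one of 0.30 (edgeR adjusted p = 0.0072 and 0.0338).

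Of 14 genes of mitochondrial translation and membrane insertion 2 rose and 2 fell, a called share of 28.6%, against 19.1% of all genes tested (9.33% rose and 9.76% fell). GUF1, a ribosome-binding GTPase, had 54.1, 52.4 and 54.7 CPM in the Sam68 siRNA libraries, against 37.3, 39.04 and 38.1 CPM in the controls (log2 fold change 0.49, SE 0.07, edgeR adjusted p = 0.000571). OXA1L, the insertase that places mitochondrially made proteins in the inner membrane, rose by a log2 fold change of 0.29 (edgeR adjusted p = 0.0134). MTRF1L, a release factor, had a log2 fold change of −0.24 (edgeR adjusted p = 0.0231). Of the nuclear-encoded partners of the mitochondrial mRNAs, 3 of 79 tested respiratory chain and ATP synthase subunits rose and 1 fell, a called share of 5.06% against the same 19.1%. Of 78 mitochondrial ribosomal proteins 6 rose and none fell in edgeR's test, a called share of 7.69% against 19.1%, with 9.33% of all genes tested rising. The median ratio of control 5 to the mean of controls 1 and 3 lay between 0.955 and 1.10 for each list of nuclear genes, against 11.9 to 14.8 for the mitochondrial mRNAs of the 4 complexes.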

How the data were processed

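Tailed RNA was measured in 6 libraries of HO-1-N-1 cells, 3 with Sam68 siRNA and 3 with control siRNA. The labels name no separate cultures, so p-values measure only how far these libraries spread, and that spread may be technical. The authors deposited 1 table for the series with whole-number counts per gene, TPM and RPKM per library, and, per the file headers, their own log2 fold changes, fold changes and p-values. The deposited RPKM were not used, nor was the signal that the authors headed CPM, whose columns do not sum as plain CPM would. The build is hg38, per the submitters' processing notes. Not given in the sources used here were aligner, counter and strand setting. Total counts were 16099488 to 17336651, and Wilson 95% intervals cover counting error only.

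Counts were fitted over the whole table with edgeR 4.0.16 (R 4.3.3): TMM scaling, filterByExpr with a minimum count of 10, robust quasi-likelihood F-test and Benjamini-Hochberg adjustment over 12351 genes, called at 0.05. The CPM printed here are counts scaled to the TMM-adjusted library size. Single values per library were compared by exact permutation tests (scipy 1.17.1). Alternatives used DESeq2 1.42.0 and limma 3.58.1, the last also on log2(TPM + 1). The fit was tested on simulated data. Mitochondrial 3′ ends came from GENCODE transcripts and promoters from RefSeq. The 39 genes and the lists were chosen with earlier results of these data known. All 39 are reported, with up to 3 called genes per further list, those with the smallest p. The mitochondrial ribosomal RNAs were not analysed here, because the deposited table has no entry for them.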

Additional observations from a re-analysis of the deposited data

How the results depend on the processing

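Of the 39 genes, TOP1MT passed in all 19 alternative fits, TFB1M in 16, and MTERF3 and FASTK in 11 each. The total of called genes was 2358, against 1056 in limma on log2(TPM + 1) with no filter and 1109 to 2667 with 1 library left out. Among the fits that leave out 1 library, the lowest counts came without Sam68 siRNA library 2 (1109), library 3 (1194) or library 1 (1537). The number of nuclear factors called was 4, against 2 in limma on log2(TPM + 1) with no filter and 1 to 4 with 1 library left out, with TOP1MT alone called without Sam68 siRNA library 2 or 3. The number of mitochondrial mRNAs called stayed at 0 with any 1 library left out. For the log2 share of counts in mitochondrial mRNAs the difference was 0.22 over all libraries and −0.49 to 1.43 with 1 left out, at −0.49 without control 1 and −0.26 without control 3. For the log2 ratio of mitochondrial to nuclear TPM it was 0.19 over all libraries and −0.52 to 1.37 with 1 left out, at −0.52 without control 1, −0.28 without control 3 and −0.03 without Sam68 siRNA library 3. The cause was not tested.

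The groups share the replicate numbers 1 and 3, and the deviations of same-numbered libraries correlated at −0.066 and 0.077 across genes. The labels do not say whether same-numbered libraries were handled together, and these low correlations cannot settle it. With the number as a replicate block, Sam68 siRNA library 2 and control 5 have no partner and drop out of the comparison. Under the block 1046 of the 12351 genes tested were called, 503 of them higher in the Sam68 siRNA libraries. Among the 1046 were 1 of the 26 nuclear factors (TOP1MT) and 12 of the 13 mitochondrial mRNAs, all higher in the Sam68 siRNA libraries. These calls rest on numbers 1 and 3 alone, and the mitochondrial mRNAs move together and are not independent observations. The block log2 fold changes were 1.39 for MT-ND1, 1.30 for MT-ND2, 1.62 for MT-ND4, 1.52 for MT-ND4L, 1.48 for MT-ND5, 1.46 for MT-ND6, 1.55 for MT-CYB, 1.07 for MT-CO1, 1.51 for MT-CO2, 1.22 for MT-CO3, 1.61 for MT-ATP6 and 1.54 for MT-ATP8. The difference in the log2 share within numbers 1 and 3 was 1.28.

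With 3 libraries a group, 1 of them 8.36 to 21.1 times apart in 12 of the 13 mitochondrial mRNAs, their differences were not resolved. The sums and ratios rest on 6 values each, and exact tests of 3 against 3 cannot go below 0.1.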

Other observations

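The table also holds 11 genes named as nuclear copies of the mitochondrial large ribosomal RNA gene (MTRNR2L), whose sequence is close enough to the mitochondrial gene that reads of either can be counted for the other. Their summed counts were 655, 1428 and 1442 in the Sam68 siRNA libraries, against 579, 673 and 4121 in controls 1, 3 and 5. MTRNR2L12 held most of them, with 583, 1283 and 1322 counts in the Sam68 siRNA libraries, against 520, 626 and 3703 in the controls. MTRNR2L8 had 59, 120 and 100 counts in the Sam68 siRNA libraries, against 42, 32 and 321 in the controls, and MTRNR2L1 had 12, 25 and 20 counts in the Sam68 siRNA libraries, against 16, 15 and 96 in the controls. Control 5 was the highest library in each of these 3 genes, as it was in all 13 mitochondrial mRNAs. Which of the counts came from nuclear loci was not tested.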
